A study of Rattus norvegicus with 12 samples.

Results

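The genes described here build or serve the axoneme, the microtubule core of the motile cilium. They were the rows of a rat lung count table whose symbol begins with Dnah, Dnai, Dnal, Tekt, Rsph, Cfap, Drc, Spef or Ift followed by a digit. A gene also had to have at least 10 counts in 4 or more of 12 libraries. Of 72 genes with such a symbol, 68 met the count rule, out of 32883 genes in the table. Foxj1, which the rule also names, was not analysed here. By role, 47 members belong to the axoneme itself (9 of the outer dynein arm, 10 of the inner dynein arm and its tether, 12 inner proteins of the doublet microtubules including the tektins, 6 of the radial spokes, 3 of the nexin-dynein regulatory complex and 7 of the central apparatus), 13 to intraflagellar transport (IFT), and 8 are assembly factors or other Cfap genes.

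The libraries came from whole lung of wild-type rats in 3 groups of 4. MCT-Fer-1 rats received monocrotaline and ferrostatin-1, MCT-vehicle rats received monocrotaline and the vehicle of ferrostatin-1, and Control rats are labelled as controls only. Monocrotaline, a plant alkaloid that injures lung vessels, serves as a model of pulmonary hypertension. Ferrostatin-1 blocks ferroptosis, a cell death driven by lipid peroxidation, and the study asked what that block does to the lung transcriptome. All samples carry a time of 25 days, and the 2 monocrotaline groups had 10 days of ferrostatin-1 or vehicle. No vehicle is stated for Control, so monocrotaline and vehicle dosing cannot be told apart against Control. Whether every library is a different rat is not stated in the labels, and p-values therefore cover the spread among the libraries, which may be technical.

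Motile cilia stand on the ciliated cells of the conducting airways and move mucus towards the throat. In the axoneme, outer and inner dynein arms are motors that slide neighbouring doublet microtubules, while radial spokes, the nexin-dynein regulatory complex and the central apparatus turn sliding into an ordered beat. IFT carries cargo along the cilium in trains, IFT-B being best known for transport to the tip and IFT-A for the return. IFT also serves the non-motile primary cilium of many other cell types, and some members, such as Dnah8, Dnah17 and Tekt5, are best known from the sperm tail. Transcription factors of the RFX family, which bind a sequence called the X-box, are known regulators of ciliary genes.

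The X-box was looked for in the promoters of the members because it is the element that ciliary genes are best known to share, a feature the choice of members did not use. Promoter windows of 250 bases before to 50 after the gene start (RefSeq, GRCr8) were matched for 57 of 68 members. The letters GTTGCC followed by any 2 bases and GG, searched on both strands, stood in 8 of these 57 windows (14%), against 579 of 27457 windows of all genes (2.11%). The shorter core GTTGCC, which the longer motif contains, stood in 18 of 57 members' windows (31.6%) and in 12.2% of all windows. The forkhead letters GTAAACA, also searched on both strands, stood in 3 of 57 windows (5.26%) and in 3.76% of all windows. A match is a description of these letters and not evidence of binding. The letters searched are a narrow form of the element. Similar letters that they do not match, such as gttgctaggcaac before the start of Dnai2 and of Tekt2, were not counted. Genes without a match are therefore not known to lack the element. The matches are shown with 8 flanking bases, in the direction of the gene, with the motif in capitals; those that begin with CC carry it on the opposite strand.
Cfap20 (chr19:9614815-9614840, plus strand): gaatagtcCCTTGGCAACcgagttcc
Cfap298 (chr11:43677452-43677477, minus strand): actgttgcCCTTGGCAACagtcactt
Cfap298 (chr11:43677596-43677621, minus strand): gggtttcgGTTGCCCGGGcaacagct
Dnah11 (chr6:145298494-145298519, minus strand): ggccatctCCCTGGCAACgggacgcg
Dnah2 (chr10:54766054-54766079, minus strand): ggccccgaGTTGCCATGGcgacgcgt
Drc1 (chr6:31779262-31779287, minus strand): ctgctttcCCTTGGCAACggcttgtt
Ift81 (chr12:39618610-39618635, plus strand): tggcaaccGTTGCCAAGGagcggtct
Spef2 (chr2:60421825-60421850, minus strand): agcaactgGTTGCCCTGGgcgacggg
Tekt2 (chr5:143907701-143907726, minus strand): ttctcagaCCTGGGCAACgaaggcga
Cfap298 had 3 matches, of which 2 overlap and are shown as the second of its lines. The sites of Ift81, Tekt2, Spef2 and Dnah11 began within 12 bases of the gene start, and the sites of Drc1 and Dnah2 began 23 and 45 bases before it. The 250 bases before the start of Dnah2, an inner arm heavy chain, and of Drc1, a subunit of the nexin-dynein regulatory complex, are printed whole, with the motif in capitals, as examples chosen after their values were seen. Both carry the searched letters before the start. They were high in the library described next, at 2.6 and 2.63 times the mean of the other libraries of its group. The other carriers were 1.04 (Cfap20) to 2.24 (Dnah11) times as high there, with Tekt2 at 1.11. Carriers of the searched letters thus did not share 1 pattern, and other forms of the element were not compared.
Dnah2 (chr10:54766027-54766276, minus strand): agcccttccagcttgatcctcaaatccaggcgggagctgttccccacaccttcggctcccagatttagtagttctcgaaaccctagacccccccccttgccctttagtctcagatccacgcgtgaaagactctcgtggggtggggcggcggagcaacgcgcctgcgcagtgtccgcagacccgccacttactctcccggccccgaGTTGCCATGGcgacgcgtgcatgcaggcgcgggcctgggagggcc
Drc1 (chr6:31779257-31779506, minus strand): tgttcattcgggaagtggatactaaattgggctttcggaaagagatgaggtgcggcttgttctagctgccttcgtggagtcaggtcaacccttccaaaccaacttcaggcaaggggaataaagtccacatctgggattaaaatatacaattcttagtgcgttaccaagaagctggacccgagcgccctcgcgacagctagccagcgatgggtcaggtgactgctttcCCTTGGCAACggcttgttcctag

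One library, MCT-vehicle 2, stood apart in these genes and has to be described before the groups are compared. Levels are given as CPM, counts relative to the library total scaled by TMM, and are compared between libraries, not between genes. MCT-vehicle 2 was the highest of the 12 libraries for 54 of 68 members, against 11.1% of all genes tested. It reached at least 1.5 times the 12-library median of the gene for 43 members, against 9.46% of all genes tested. Of those 43 members, 39 were among the 47 axonemal genes and 1 was among the 13 IFT genes. The axonemal members summed to 1033, 919, 737 and 1014 CPM in MCT-Fer-1 1 to 4, to 814, 1839, 1092 and 680 CPM in MCT-vehicle 1 to 4, and to 887, 840, 752 and 970 CPM in Control 1 to 4. MCT-vehicle thus held both the highest and the lowest of the 12 sums, and the groups overlapped.

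**Figure D1:**
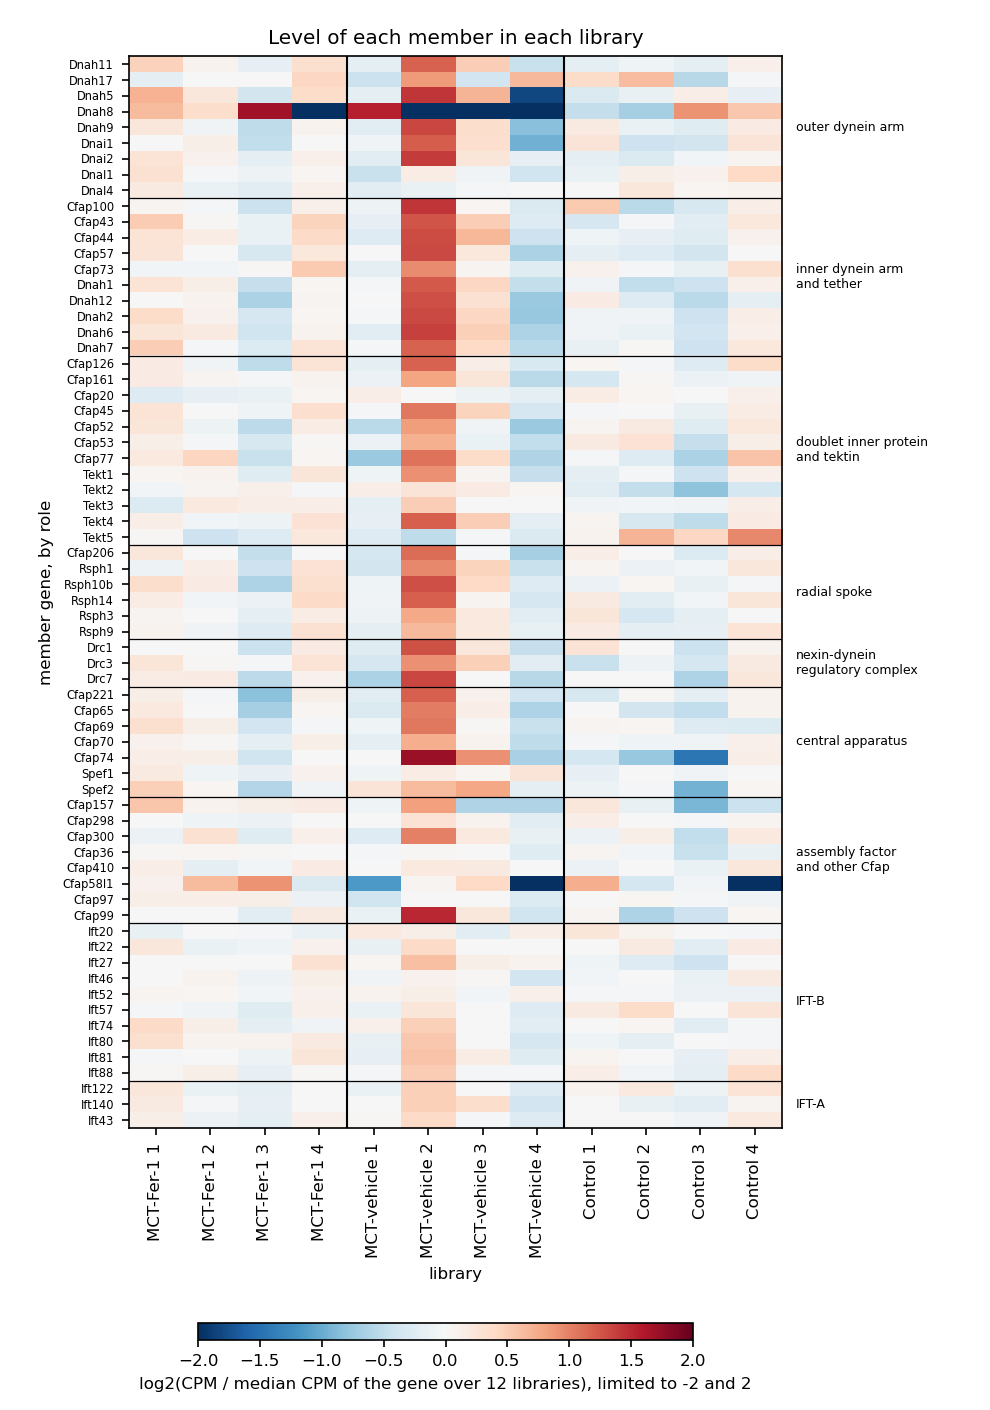
Level of the 68 members (rows, by role) in the 12 libraries (columns), as log2 of CPM over the median CPM of the gene across all libraries, limited to -2 and 2. MCT-vehicle 2 is the highest library for 54 of 68 members, and the red band in its column runs through the axonemal roles and fades in the IFT rows.

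The excess in MCT-vehicle 2 differed in size between the roles. Relative to the mean of the other 3 MCT-vehicle libraries, the inner dynein arm and tether genes were 2.09 to 2.89 times as high (median 2.47), and all 10 were highest in this library. The median was 2.24 for outer arm genes, 2.20 for radial spoke genes, 2.31 for central apparatus genes and 1.96 for the doublet inner proteins. The 3 genes of the nexin-dynein regulatory complex, which links neighbouring doublets, had a median of 2.63, with Drc7 the highest of all members at 3.29. IFT genes were 1.05 to 1.62 times as high (median 1.39), without overlap with the inner arm genes. These folds describe 1 library and carry no test.

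Some members did not take part. Tekt2 was 1.11 times as high in MCT-vehicle 2 as in the other 3 MCT-vehicle libraries, Tekt5 was 0.80 times, and the outer arm light chain gene Dnal4 was 0.97 times. Cfap20, an inner junction protein, was 1.04 times as high, and the IFT-B genes Ift20 and Ift52 were each 1.05 times as high. Dnah8, an outer arm heavy chain gene best known from sperm, was near the count limit and went its own way, with 0.948, 0.783, 1.97 and 0.0839 CPM in MCT-Fer-1, 1.79, 0.0907, 0.149 and 0 CPM in MCT-vehicle, and 0.44, 0.388, 1.14 and 0.888 CPM in Control. Germ cell markers (Prm1, Prm2, Tnp1, Ddx4, Odf1 and Akap4) summed to at most 0.2 CPM in any library.

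**Figure D2:**
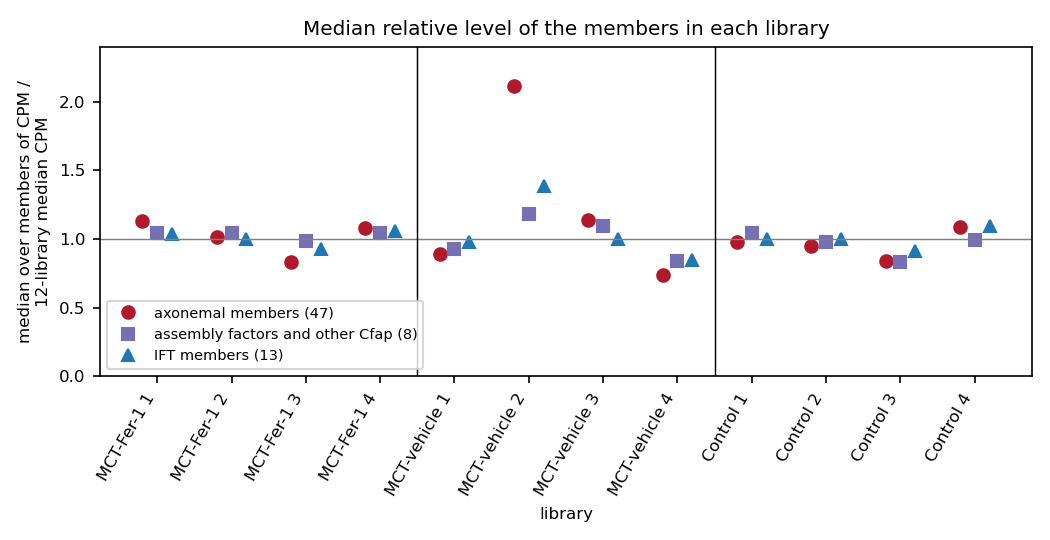
Median over members of the CPM relative to the 12-library median of each gene, for axonemal, other and IFT members (symbols), in each library. In MCT-vehicle 2 the median is 2.11 for axonemal members and 1.39 for IFT members; in the other 11 libraries the axonemal median lies between 0.74 and 1.14.

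Among the other 11 libraries the axonemal genes moved together over a smaller range. Their median relative level was 1.13, 1.01, 0.83 and 1.08 in MCT-Fer-1 1 to 4, 0.89, 1.14 and 0.74 in MCT-vehicle 1, 3 and 4, and 0.98, 0.95, 0.84 and 1.09 in Control 1 to 4. MCT-vehicle 4 was the lowest of the 12 libraries for 32 of 68 members, against 12.1% of all genes tested. In a whole lung, fewer ciliated cells and less RNA per ciliated cell cannot be told apart.

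Markers of other cells moved in the same library. Of the 8 tested secretory airway cell markers, 6 were highest in MCT-vehicle 2. Bpifa1, a secreted protein of the upper airways, had 0 to 0.794 CPM in MCT-Fer-1, 144 CPM in MCT-vehicle 2, 0 to 2.83 CPM in the other MCT-vehicle libraries, and 0 to 10.3 CPM in Control. Scgb3a1 had 318 CPM in MCT-vehicle 2, 114 CPM in Control 4, and 1.31 to 6.64 CPM in the other 10 libraries. The airway mucin gene Muc5b had 244 CPM in MCT-vehicle 2 and 4.57 to 51.4 CPM in the other libraries. Scgb1a1, the main secreted product of club cells, had 5914 to 9601 CPM in MCT-Fer-1, 8058 CPM in MCT-vehicle 2, 5659 to 7545 CPM in the other MCT-vehicle libraries, and 8000.2 to 8986 CPM in Control. The cartilage gene Col2a1 had at most 0.259 CPM in any library.

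Heart muscle markers were also high in this library. All 8 tested were highest in MCT-vehicle 2, where they summed to 438.6 CPM, against 284.5 CPM in Control 4 and 18.0 to 82.6 CPM in the other libraries. Control 4, the other library with high heart muscle and Scgb3a1 counts, had an axonemal sum of 970 CPM, the highest of Control and within the range of the MCT-Fer-1 libraries. MCT-vehicle 3, with 82.6 CPM, came next after these in heart muscle markers and had the highest axonemal sum after MCT-vehicle 2 (1092 CPM). The order did not hold further. MCT-vehicle 4 followed with 47.2 CPM of heart muscle markers and had the lowest axonemal sum (680 CPM). MCT-Fer-1 1, with 20.3 CPM of heart muscle markers, had an axonemal sum of 1033 CPM, above that of Control 4. Alveolar type 2 markers summed to 18801 to 32767 CPM in MCT-Fer-1, 20156 to 31784 CPM in MCT-vehicle and 30265 to 32786 CPM in Control; MCT-vehicle 2 was the lowest of its group. The part of these cell markers in the ciliary values was not tested. Many of the group values that this library moves are given below with and without it, but not all.

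**Figure D3:**
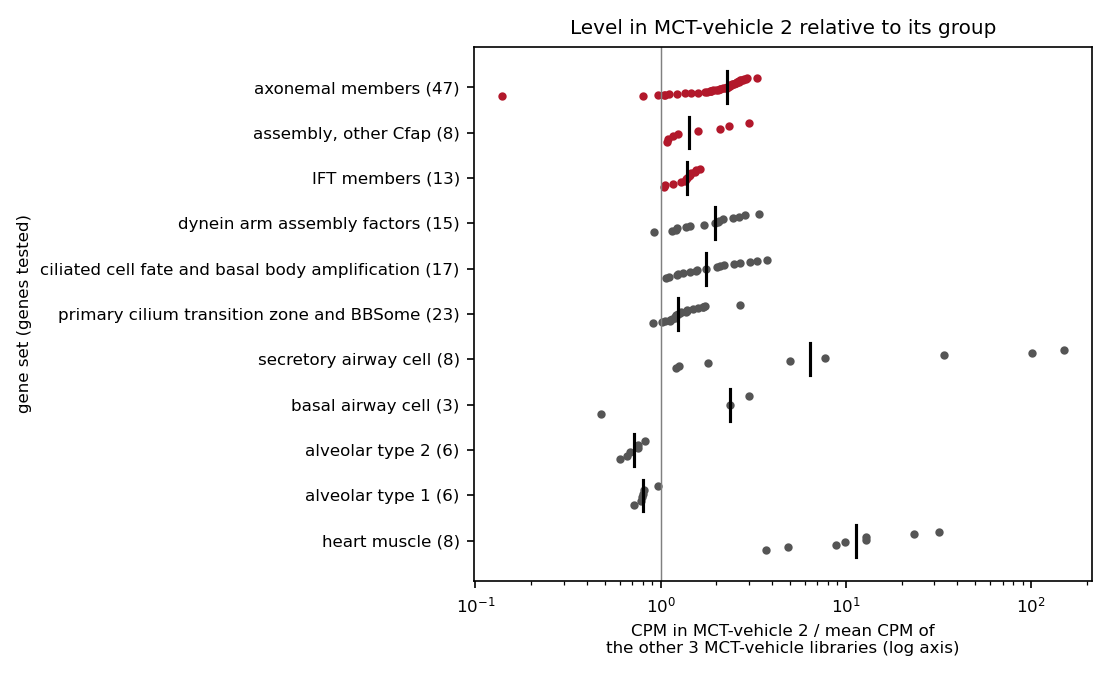
CPM in MCT-vehicle 2 over the mean of the other 3 MCT-vehicle libraries (log axis) for each gene (points) of the member blocks (red) and of marker lists (grey), with the median as a bar. The axonemal members have a median of 2.29, above the IFT members at 1.39, and the secretory airway and heart muscle markers reach higher ratios.

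Between MCT-vehicle and Control, 1 member rose and 1 fell by edgeR's quasi-likelihood test (Benjamini-Hochberg adjusted p below 0.05 over 15257 genes tested). Of all genes tested, 10.3% rose and 8.28% fell, 18.6% in either direction, so 2 of 68 members is a lower share than that of all genes. Tekt2 rose and Tekt5 fell, and both encode tektins, filament proteins inside the doublet microtubules. The fold changes of 56 of 68 members were positive, with a median of 0.27 on the log2 scale, against 52.4% of all genes and a median of 0.02. Without MCT-vehicle 2, 27 of 68 were positive (median -0.055), against 50.5% of all genes (median 0.004). The direction over the members thus turned with 1 library.

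Tekt2 had 27.6, 29.9, 30.9 and 28.0 CPM in MCT-Fer-1, 31.6, 34.3, 32.1 and 29.5 CPM in MCT-vehicle, and 25.0, 20.8, 16.4 and 22.5 CPM in Control. Every library of both monocrotaline groups was above every Control library, and the monocrotaline groups overlapped each other. In MCT-vehicle against Control its log2 fold change was 0.59 ± 0.11 (SE; edgeR adjusted p = 0.00307). Leaving out MCT-vehicle 2 gave 0.55 ± 0.12 (adjusted p = 0.0101). In MCT-Fer-1 against Control it was 0.46 ± 0.11 (adjusted p = 0.019). It no longer passed without MCT-Fer-1 2 (adjusted p = 0.0529), without MCT-Fer-1 3 (0.0595) or without Control 2 (0.0521). Both comparisons share the Control libraries. Between MCT-Fer-1 and MCT-vehicle the log2 fold change of Tekt2 was -0.13 ± 0.11 (adjusted p = 0.661).

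Tekt5, best known from sperm flagella, had 4.83, 3.55, 3.93 and 5.47 CPM in MCT-Fer-1, 3.93, 3.31, 4.62 and 3.89 CPM in MCT-vehicle, and 4.95, 7.53, 6.32 and 9.17 CPM in Control. All MCT-vehicle libraries were below all Control libraries, while MCT-Fer-1 4 was above Control 1. Its log2 fold change in MCT-vehicle against Control was -0.83 ± 0.21 (edgeR adjusted p = 0.0164). Leaving out MCT-vehicle 2 gave -0.76 ± 0.23 (adjusted p = 0.0438), and leaving out Control 4, the highest Control library, gave -0.67, which did not pass (adjusted p = 0.0576). In MCT-Fer-1 against Control the log2 fold change was -0.65 ± 0.21 (adjusted p = 0.0685).

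**Figure D4:**
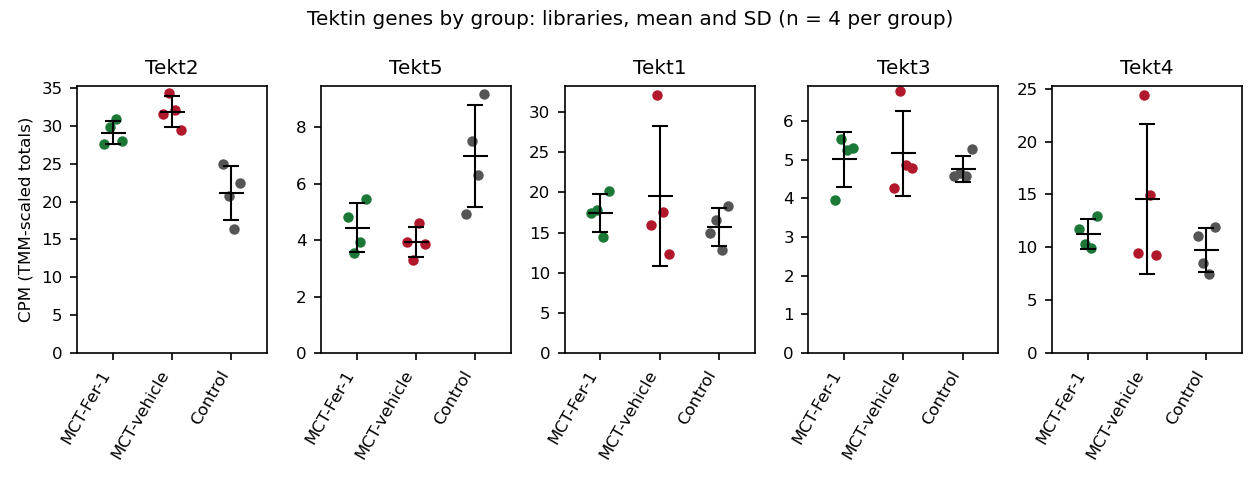
CPM of the 5 tektin genes in each library (points) of the 3 groups, with the mean (bar) and SD (n = 4 each); each panel has its own axis from 0. Tekt2 lies at 27.6 to 34.3 CPM in both monocrotaline groups, against 16.4 to 25.0 CPM in Control, while Tekt1 and Tekt4 are set apart by MCT-vehicle 2 alone.

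The other tektins showed neither pattern. Tekt4 had 11.7, 10.3, 9.95 and 13 CPM in MCT-Fer-1, 9.49, 24.4, 15 and 9.30 CPM in MCT-vehicle, and 11, 8.53, 7.47 and 11.9 CPM in Control; its log2 fold change in MCT-vehicle against Control was 0.58 ± 0.28 (adjusted p = 0.175), or 0.20 ± 0.21 without MCT-vehicle 2. The first value is as large as the one of Tekt2, with an SE of 0.28 against 0.11. Tekt1 had a log2 fold change of 0.32 ± 0.24 and Tekt3 of 0.12 ± 0.18 in the same comparison, and both turned without MCT-vehicle 2 (-0.037 and -0.043). The inner junction gene Cfap20 had 43.0 to 53.2 CPM in MCT-Fer-1, 44.9 to 56.7 CPM in MCT-vehicle and 51.3 to 56.9 CPM in Control, and no fold change of it passed the adjusted threshold. Cfap126, another protein of the doublet, was at -0.05 ± 0.30 in MCT-Fer-1 against Control.

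Dynein arm genes had large fold changes and large errors in MCT-vehicle against Control. All 10 inner arm and tether genes had positive log2 fold changes (0.16 to 0.62, median 0.55), and none passed the adjusted threshold (smallest adjusted p = 0.191). Without MCT-vehicle 2 their median was 0.07. Dnah12, an inner arm heavy chain, had 64.7, 67.5, 41.8 and 67.4 CPM in MCT-Fer-1, 64.3, 158, 79.9 and 38.4 CPM in MCT-vehicle, and 72.6, 54.2, 44.3 and 57.1 CPM in Control. Its MCT-vehicle libraries spanned the values of both other groups. Cfap43, which tethers inner dynein, averaged 71.8 ± 15.4 CPM in MCT-Fer-1, 84.0 ± 43.9 CPM in MCT-vehicle (63.5 ± 19.2 without MCT-vehicle 2) and 57.7 ± 9.73 CPM in Control (SD, n = 4 each, 3 without MCT-vehicle 2).

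In the outer arm, Dnah5 and Dnah9 are the heavy chain motors of airway cilia, Dnah11 is the other heavy chain of their proximal part, and Dnai1 is an intermediate chain; human primary ciliary dyskinesia is often caused by mutations of these genes. Dnah5 had 8.70, 6.31, 4.20 and 6.96 CPM in MCT-Fer-1, 4.70, 14.6, 8.65 and 1.52 CPM in MCT-vehicle, and 4.4, 4.87, 5.90 and 4.79 CPM in Control. Its highest and lowest values both lay in MCT-vehicle, and its log2 fold change against Control was 0.56 ± 0.49, or -0.03 ± 0.43 without MCT-vehicle 2. Dnah9 averaged 29.3 ± 6.02 CPM in MCT-Fer-1, 39.3 ± 25.9 CPM in MCT-vehicle (27.2 ± 10.9 without MCT-vehicle 2) and 30.3 ± 4.39 CPM in Control (SD, n = 4 each). Dnah11 averaged 41.1 ± 7.69 CPM in MCT-Fer-1, 47.5 ± 24.7 CPM in MCT-vehicle (36.3 ± 12.7 without MCT-vehicle 2) and 34.0 ± 3.30 CPM in Control. Dnai1 averaged 8.72 ± 1.5 CPM in MCT-Fer-1, 11.6 ± 7.07 CPM in MCT-vehicle (8.35 ± 3.43 without MCT-vehicle 2) and 8.98 ± 2.27 CPM in Control. Without that library the MCT-vehicle means of Dnah9 and Dnai1 were below those of Control. The light chain gene Dnal1 went the other way, with a log2 fold change of -0.30 ± 0.15 in MCT-vehicle against Control (adjusted p = 0.187). Leaving out MCT-vehicle 2 gave -0.42 ± 0.14 (adjusted p = 0.0638).

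The 6 radial spoke genes, the 3 genes of the nexin-dynein regulatory complex and the 7 central apparatus genes all had positive fold changes in MCT-vehicle against Control, and none passed. Without MCT-vehicle 2, 2 of 6, 1 of 3 and 3 of 7 were positive, and the medians were -0.09, -0.14 and -0.05. Rsph10b had a log2 fold change of 0.54 ± 0.31, or 0.10 ± 0.21 without MCT-vehicle 2, and Rsph9, a spoke head gene, 0.13 ± 0.19, or -0.07 ± 0.16. Drc1 had 0.36 ± 0.32, or -0.14 ± 0.21 without that library, and Drc3 0.46 ± 0.25, or 0.18 ± 0.21. The largest value of any member was that of Cfap74, a protein of the central apparatus, at 1.26 ± 0.46 (adjusted p = 0.0743). Cfap74 had 3.62, 3.55, 2.50 and 3.29 CPM in MCT-Fer-1, 3.29, 10.8, 6.19 and 2.10 CPM in MCT-vehicle, and 2.58, 1.94, 1.20 and 3.61 CPM in Control. MCT-vehicle 2 and 3 were above the other 10 libraries, and MCT-vehicle 4 lay within the Control range. Without MCT-vehicle 2 the log2 fold change was 0.71 ± 0.39 (adjusted p = 0.25).

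IFT genes had smaller fold changes between the groups. The 13 IFT members summed to 411.8 ± 25.6 CPM in MCT-Fer-1, 426.0 ± 68.1 CPM in MCT-vehicle (394.0 ± 28.0 without MCT-vehicle 2, below both other groups) and 408.8 ± 26.2 CPM in Control (SD, n = 4 each). Ift27, a small GTPase of IFT-B, had 15.8, 15.7, 15.9 and 19.6 CPM in MCT-Fer-1, 16.3, 24.1, 17.2 and 16.6 CPM in MCT-vehicle, and 15, 13.2, 11.9 and 15.8 CPM in Control. All MCT-vehicle values of Ift27 were above all Control values, and the log2 fold change was 0.41 ± 0.15 (adjusted p = 0.0669), or 0.26 ± 0.12 without MCT-vehicle 2 (adjusted p = 0.186). Ift57, another IFT-B gene, averaged 28.6 ± 2.77 CPM in MCT-Fer-1, 29.2 ± 4.46 CPM in MCT-vehicle and 34.5 ± 3.51 CPM in Control. Its log2 fold change in MCT-vehicle against Control was -0.24 ± 0.12 (adjusted p = 0.175), and it passed only without MCT-vehicle 2 (-0.34 ± 0.11, adjusted p = 0.0498). In that fit 3 of 68 members passed (Tekt2, Tekt5 and Ift57), against 15.9% of all genes. With all libraries, 2 members were higher without overlap between MCT-vehicle and Control (Tekt2 and Ift27), against 11.5% of all genes, and 1 was lower (Tekt5), against 10% of all genes and 21.5% in either direction.

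Ferrostatin-1 was compared with vehicle in monocrotaline rats, and no member passed. The edgeR test called 0 members, 0 had an unadjusted p below 0.05 (5.85% of all genes were higher and 6.17% lower at that level), and DESeq2 and limma voom also called 0 members. Of all genes tested, edgeR called 0%, limma voom called 0 of 15257 and DESeq2 called 233 of 21694. The smallest p was that of Cfap97, with a log2 fold change of 0.22 ± 0.11 (adjusted p = 0.457). Fold changes were negative for 58 of 68 members (median -0.15), against 52.2% of all genes (median -0.01). Without MCT-vehicle 2 they were positive for 57 of 68 (median 0.11), against 49.3% of all genes (median -0.003). In that fit 0 members were called, and 0% of all genes. The axonemal members alone had a median of -0.24 with all libraries and of 0.11 without MCT-vehicle 2. No member had groups without overlap, against 3.11% of all genes in the higher direction, 3% in the lower and 6.1% in either. The axonemal sums averaged 925.5 ± 135.4 CPM in MCT-Fer-1, and 1106.2 ± 517.5 CPM in MCT-vehicle or 862.0 ± 210.1 CPM without MCT-vehicle 2 (SD, n = 4, 4 and 3). The most negative log2 fold change was that of Cfap74 (-0.80 ± 0.44, adjusted p = 0.499, or -0.24 ± 0.39 without MCT-vehicle 2), and the inner arm gene Cfap100 was at -0.52 ± 0.36, or 0.04 ± 0.22 without MCT-vehicle 2.

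**Figure D5:**
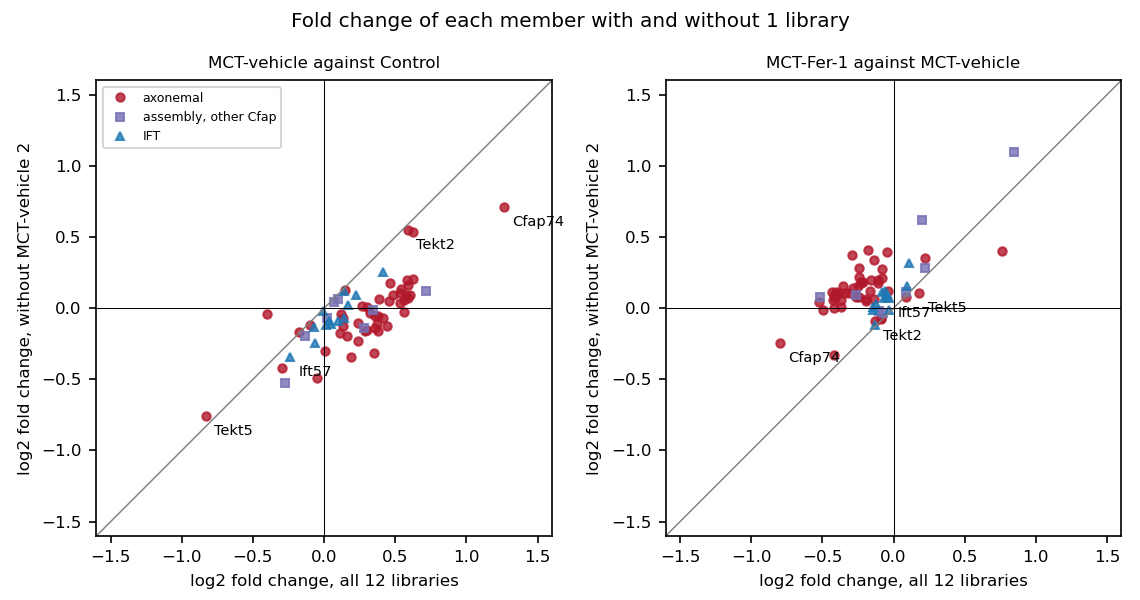
Log2 fold change of each member with all 12 libraries (x axis) and without MCT-vehicle 2 (y axis), for MCT-vehicle against Control (left) and MCT-Fer-1 against MCT-vehicle (right); the grey line marks equal values. Most members lie below the line on the left and above it on the right, and the sign changed for 29 and 47 of 68 members, while Tekt2 and Tekt5 stay near the line.

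The MCT-vehicle libraries enter MCT-Fer-1 against Control only through the gene filter, the scaling, the shared estimate of the spread and the adjustment over genes tested. Tekt2 rose and no member fell, against 6.67% and 4.12% of all genes tested (10.8% in either direction). The median log2 fold change over the members was 0.08, with 45 of 68 positive, against a median of -0.0036 and 49.4% positive over all genes. The axonemal members had a median of 0.08, and their sums were 925.5 ± 135.4 CPM in MCT-Fer-1 and 862.2 ± 91.2 CPM in Control (SD, n = 4 each), a difference within the spread. Ift80, an IFT-B gene, had 43.0, 36.4, 36.3 and 39.0 CPM in MCT-Fer-1 and 32.5, 30.1, 34.1 and 33.4 CPM in Control; these values did not overlap, and its log2 fold change was 0.25 ± 0.15 (adjusted p = 0.346). Besides Ift80, Tekt2 was the only member higher without overlap, against 10.6% of all genes, and 0 members were lower without overlap, against 8.54% of all genes (19.1% in either direction). Ift57 and Cfap20 had log2 fold changes of -0.27 ± 0.12 and -0.19 ± 0.09 (adjusted p = 0.163 and 0.184).

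Further motile cilium genes, in lists drawn up outside the naming rule, were tested in the same fits. Of all genes tested, edgeR called 18.6% in MCT-vehicle against Control, 0% in MCT-Fer-1 against MCT-vehicle and 10.8% in MCT-Fer-1 against Control. None of 15 tested dynein arm assembly factors, of 18 ruler, nexin link and spoke partners, or of 15 central apparatus partners passed in any comparison by edgeR; an unadjusted p below 0.05 was found for 0 of them in MCT-vehicle against Control, for 0 in MCT-Fer-1 against MCT-vehicle and for 1 in MCT-Fer-1 against Control. DESeq2 called 0 of them, and 1 further gene of these lists, Lrrc23, which the filter of the edgeR fit left out, in MCT-vehicle against Control. Limma voom called 0. Their medians in MCT-vehicle against Control were 0.22, 0.40 and 0.33, and without MCT-vehicle 2 they were -0.10, -0.04 and -0.11. Hydin, a very large central apparatus protein, had 64.8, 48.5, 36.0 and 52.6 CPM in MCT-Fer-1, 45.6, 130, 62.0 and 31.1 CPM in MCT-vehicle, and 55.6, 43.2, 45.5 and 57.4 CPM in Control, with the same high library as the members. Ccdc39, which with Ccdc40 sets the spacing of inner arms and spokes, had 33.4 CPM in MCT-vehicle 2 and 12.3 to 24.6 CPM in the other libraries. Of 23 primary cilium genes (transition zone and BBSome), none passed by edgeR in any comparison, 1, 1 and 2 had an unadjusted p below 0.05 in MCT-vehicle against Control, MCT-Fer-1 against MCT-vehicle and MCT-Fer-1 against Control, and Inpp5e passed by DESeq2 and limma voom in MCT-Fer-1 against Control. Their median in MCT-vehicle against Control was -0.09. Of all genes, 5.85% were higher and 6.17% lower at an unadjusted p below 0.05 in MCT-Fer-1 against MCT-vehicle. That share is not given for the comparisons with Control, so the unadjusted counts there are not read as few or many.

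Of 40 tested partners of the doublet microtubules and other proteins of ciliated cells, 1 rose and 2 fell in MCT-vehicle against Control by edgeR. Of all genes, 10.3% rose and 8.28% fell. DESeq2 called 4 of the 40, against 3515 of 21694 genes, and limma voom 2, against 2840 of 15257. Tppp3, a tubulin-binding protein of ciliated cells, fell by 0.45 on the log2 scale (SE 0.11, adjusted p = 0.013), and in MCT-Fer-1 against Control it fell by 0.50 (SE 0.11, adjusted p = 0.0133). It had 470, 415, 368 and 448 CPM in MCT-Fer-1, 488, 489, 414 and 360 CPM in MCT-vehicle, and 668, 601, 539 and 590 CPM in Control, without overlap with Control. Efhc2, an inner protein of the doublet, fell by 0.55 (SE 0.17, adjusted p = 0.0414), and did not pass in 8 of 12 fits that each left out 1 library (adjusted p up to 0.123). The alpha tubulin gene Tuba1b rose by 0.28 (SE 0.09, adjusted p = 0.0438), but not by limma voom (adjusted p = 0.0659), nor in 9 of those 12 fits, among them the one without MCT-vehicle 2 (adjusted p = 0.0887). DESeq2 also called the beta tubulin gene Tubb4b (adjusted p = 0.0412). Of 14 dynein docking and other dynein subunits, the light chain gene Dynlt1 rose (0.56 ± 0.12, adjusted p = 0.00579) and the light chain gene Dynll2 fell (-0.41 ± 0.09, adjusted p = 0.00645). Both light chains also serve cytoplasmic dynein. Of 18 further IFT and IFT motor genes, Hspb11, an IFT-B subunit, fell (-0.56 ± 0.17, adjusted p = 0.0332), and did not pass in 6 of 12 such fits (adjusted p up to 0.0926). The same 10.3% and 8.28% of all genes stand beside the counts of the dynein subunits and of these IFT genes.

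Of 17 tested genes of ciliated cell fate and basal body amplification, 3 rose in MCT-vehicle against Control and the same 3 in MCT-Fer-1 against Control by edgeR. Of all genes, 10.3% and 6.67% rose in these comparisons. DESeq2 called 3 and 5 of the 17, against 3515 and 2265 of 21694 genes. Limma voom called 2 and 6, against 2840 and 2363 of 15257 genes. Stil and Plk4 serve centriole duplication in dividing cells too, and rose by 1.85 ± 0.19 and 1.33 ± 0.18 in MCT-vehicle against Control (adjusted p = 8.14e-05 and 0.000418). The third was Ccno, needed for basal body amplification, at 0.93 ± 0.29 (adjusted p = 0.0401). Ccno did not pass by limma voom (adjusted p = 0.0711), nor without MCT-vehicle 2 (0.58 ± 0.23, adjusted p = 0.117), a fit in which Gmnc, named after its value was seen, fell (-1.39, adjusted p = 0.0127). In MCT-Fer-1 against Control, Ccno did not pass in 7 of 12 fits that left out 1 library. Of 5 cycling cell markers, 4 rose in both comparisons; Mki67 had 75.6 to 110 CPM in MCT-Fer-1, 66.5 to 84.7 CPM in MCT-vehicle and 22.3 to 38.2 CPM in Control. The part of cycling cells in the values of Stil and Plk4 was not tested. Mcidas, an early switch of ciliated cell fate, had 0.876 to 1.21 CPM in MCT-Fer-1, 0.427 to 1.5 CPM in MCT-vehicle and 0.22 to 0.723 CPM in Control, and did not pass against Control in MCT-Fer-1 by edgeR (1.5 ± 0.48, adjusted p = 0.0663). It passed there by DESeq2 (adjusted p = 0.0433), by limma voom (0.0169) and by edgeR without MCT-vehicle 2 (0.0279), and Foxn4 passed by the same 3 fits. The RFX genes Rfx2 and Rfx3 did not pass in any comparison, at 0.04 ± 0.20 and 0.12 ± 0.20 in MCT-vehicle against Control.

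The lists of airway cells gave no further call among ciliated cells. Of 12 ciliated airway cell markers, Tppp3 fell in both comparisons with Control, and the others did not pass. Tppp3 did not stand for its list in MCT-Fer-1 against Control, where the median log2 fold change of the 12 was 0.03. In MCT-vehicle against Control the median was 0.33 with all libraries, a value that includes MCT-vehicle 2. Of these markers, 10 were highest in that library, and the list stood there at a median of 2.05 times the 12-library median. The 12 include the members Rsph1 and Dnah5. Among 5 epithelial markers, Krt8 and Krt18 fell in MCT-vehicle against Control by edgeR (-0.41 ± 0.10 and -0.66 ± 0.11, adjusted p = 0.0106 and 0.00129). In MCT-Fer-1 against Control both fell too (-0.68 ± 0.10 and -0.95 ± 0.11, adjusted p = 0.000816 and 0.000176). Cldn7 also fell there (-0.31 ± 0.08, adjusted p = 0.0299), but did not pass in 6 of 12 fits that left out 1 library. Of all genes, 8.28% and 4.12% fell in these comparisons.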

How the data were processed

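The 12 libraries hold RNA-seq of whole rat lung. The authors deposited 1 table with a value per gene for each library. The column headers call these expression values, and they were taken as read counts here. Its columns of group means (unit score here) are the authors' own mean counts, and were not used. For aligner, counter, strand setting, annotation and genome build, versions and names were not given in the sources used here. No coordinate of a counted gene is printed, and reads of overlapping genes (such as Drc3 and Tom1l2, or Cfap97 and Snx25) cannot be told apart. Reads may also be split between like-named copies such as Cfap58 and Cfap58l1.

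The libraries held 11601929 to 70627239 counts, and the limit that a count of 0 allows, 3 counts, stands for 0.0425 to 0.259 CPM; intervals of this kind cover counting error only. Mitochondrial reads were 3.17% to 4.2%. All 18 pairs of libraries within a group differed beyond counting noise, with a chi-square of at least 10.7 per degree of freedom. Genes were kept with filterByExpr, which left 15257, including all 68 members; counts were scaled by TMM and fitted with edgeR 4.0.16 (robust quasi-likelihood, 1 coefficient per group, 9 residual degrees of freedom) in R 4.3.3. p-values were adjusted by Benjamini-Hochberg over all genes tested, with a threshold of 0.05. Standard errors (SE) were taken as the absolute log2 fold change over the root of the F statistic.

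The members, roles, lists and tests were chosen with earlier results of these data known. The count rule left out Rsph4a, Cfap58, Cfap97d1 and Rsph6a; its fourth-highest count per gene was 2 for Rsph4a, the highest of those left out, and 17 for Cfap58l1 and Dnah8, the lowest of those kept. Named members were those past the threshold, the 2 with the highest mean CPM and the smallest p of each role, and primary ciliary dyskinesia genes; not every one so chosen is given, and members that stayed out of the rise in MCT-vehicle 2 were named after their values were seen. Promoter windows came from RefSeq (GRCr8); of 262 list symbols 232 matched. Alternatives were RLE factors, raw library totals, other filters, DESeq2 1.42.0, limma 3.58.1 voom with quality weights, a fit of the compared groups alone, a replicate block, thinning, and leaving out libraries. The replicate numbers are not known to pair the samples.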

Additional observations from a re-analysis of the deposited data

Results flagged for a closer look

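A library far from the others of its group was marked where its gap to the nearest value, divided by the range of the group, passed Dixon's critical value for 4 samples; chance marks about 1 in 20 groups. Among the members looked at one by one, Cfap97 was low in MCT-Fer-1 4 (gap over range 0.948), Dnah12 was low in MCT-Fer-1 3 (0.892) and Ift27 was high in MCT-Fer-1 4 (0.957). In MCT-vehicle, Cfap100 was high in MCT-vehicle 2 (0.886), Ift27 was high in MCT-vehicle 2 (0.894) and Dnah8 was high in MCT-vehicle 1 (0.917). Over all 68 members the same measure marked 5 genes in MCT-Fer-1, 5 in MCT-vehicle, 4 of them for MCT-vehicle 2, and 1 in Control. The measure marks few genes in MCT-vehicle although MCT-vehicle 2 was the highest of the 12 libraries for 54 members, since MCT-vehicle 1, 3 and 4 also lay apart from each other.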

How the results depend on the processing

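The count of members called in MCT-vehicle against Control was 2, and ran from 1 to 3 when each library was left out in turn. Over all genes those fits called from 2021 of 15438 to 2860 of 15461. Without both MCT-vehicle 2 and Control 4, 1 member was called, against 1675 of 15314 genes. Its median log2 fold change over members (0.27) ran from -0.055 (without MCT-vehicle 2) to 0.43 (without MCT-vehicle 4), and was 0.0044 without both MCT-vehicle 2 and Control 4. In MCT-Fer-1 against MCT-vehicle the median (-0.15) ran from -0.29 (without MCT-vehicle 4) to 0.11 (without MCT-vehicle 2), and was 0.11 without both libraries; 0 members were called under every alternative run. In MCT-Fer-1 against Control, 1 member was called by edgeR with all libraries. DESeq2 called 2, against 2265 of 21694 genes, and limma voom 2, against 2363 of 15257. Tekt5 passed too by DESeq2 and limma voom (adjusted p = 0.0319 and 0.0425). Leaving out each library gave 0 to 2 members by edgeR, against 977 of 15388 to 1714 of 15443 genes. Tekt5 also passed by edgeR without Control 1 (adjusted p = 0.0353). Tekt2 in MCT-vehicle against Control passed under all 21 alternatives (adjusted p = 2.47e-05 to 0.0214), Tekt5 did not without Control 4, nor without both libraries (0.113), and Cfap74 passed by DESeq2 (0.0299) and without MCT-vehicle 4 (0.0254). The replicate number as a block gave 2, 0 and 1 members called, against 2812, 0 and 1676 of 15257 genes, and medians of 0.22, -0.13 and 0.07. Deviations of same-numbered libraries over all genes correlated at r of -0.063 to 0.102. Such a correlation cannot settle whether same-numbered samples share more than a number. The cause of these shifts was not tested. Depth limits Dnah8 and Cfap58l1, the members with the lowest counts, most.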

Other observations

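Rsph4a, a radial spoke head gene, did not meet the count rule, with 1, 0, 1 and 7 counts in MCT-Fer-1, 0, 4, 2 and 1 counts in MCT-vehicle, and 1, 1, 0 and 3 counts in Control. Its counts were therefore at or near the limit of detection at this depth. A low RNA level and a loss of reads in the assignment to genes cannot be told apart, since annotation and counter were not given.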
